A study of Mus musculus with 6 samples.

Results

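The imprinted Dlk1-Dio3 locus lies on mouse chromosome 12 and holds the genes Dlk1, Meg3, Rtl1, Rian, Mirg and Dio3. H3K9me3 formed its highest peak between Dlk1 and Meg3, where the imprinting control region lies, and H3K27me3 formed its highest peak over Dio3. Both peaks were lower in Dicer KO/Dnmt1 cKO ESCs than in Dicer KO ESCs, as were most tiles of the genome rich in these marks, and the change over the body of Dio3 itself did not exceed counting error. Nor did any change over the bodies of Meg3, Rtl1, Rian and Mirg in any mark. The locus was taken as chr12:110600001-111700000 of the build NCBIM37, with the bounds of the 6 genes as annotated there and the stretch between Dlk1 and Meg3 treated as a feature of its own. This gave 6 of 37310 annotated genes and 550 of 1327469 tiles of 2 kb.

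The study asked whether small RNAs and repressive chromatin restrain transposons once DNA methylation is lost. It also reported on this locus after Dnmt1 deletion in ESCs that had Dicer. There Rian and Mirg were activated, the imprint control region lost methylation, and the microRNAs of the locus rose. Neither RNA nor DNA methylation was measured here. ChIP-seq of the repressive histone marks H3K9me2, H3K27me3 and H3K9me3 was available here for both genotypes, as 6 libraries with a single one per mark and genotype, so differences between genotypes have no replicate check and were not tested. All cells lacked Dicer: the Dicer KO line was made by CRISPR/Cas9 in ESCs with loxP sites in both copies of Dnmt1, and the Dicer KO/Dnmt1 cKO is that line after tamoxifen had switched on Cre, which deletes Dnmt1. The cells were mouse ESCs grown in serum and LIF, given as strain E14 in the labels and as C57BL/6 in the methods. The labels do not give the day after Dnmt1 deletion. A library of wild-type cells was not used here, so the effect of Dicer itself was not measured. An input library was not used either, so read counts were not corrected for mappability or base composition.

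Libraries held 16834940 to 27162045 reads, with a median of 13 to 18 reads per tile and 6.10% to 6.89% of tiles without a read. Levels below are observed over expected reads, that is, reads of a feature divided by those its tiles would hold if the library were spread evenly over the genome, so 1 is the genome mean. Intervals are 95% intervals that cover counting error only, and copies made by PCR are not independent molecules. The label ESC was compared with H3K27me3 at gene starts. In Dicer KO, 6 pluripotency genes stood between 0.195 and 2.59, with Esrrb highest. The 8 developmental regulators stood between 2.51 and 10.5, so the ranges overlapped. The pluripotency gene Tfcp2l1 was also listed, but was not found as a protein-coding gene under that name. In Dicer KO/Dnmt1 cKO the ranges were 0.270 to 2.35 and 3.35 to 6.61.

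Imprinted genes are expressed from a single parental copy. At this locus the paternal copy expresses Dlk1, which encodes a transmembrane protein of the Notch ligand type, Rtl1, a gene derived from a retrotransposon that is needed in the placenta, and Dio3, which encodes the deiodinase that inactivates thyroid hormone. The maternal copy expresses the noncoding RNAs Meg3, Rian and Mirg, which carry snoRNAs and a large cluster of microRNAs. The choice between both programs is set by the intergenic differentially methylated region, or IG-DMR, which is methylated on the paternal copy and lies between Dlk1 and Meg3. DNMT1 copies DNA methylation onto the new strand after replication, and the zinc finger protein ZFP57 binds the methylated hexamer TGCCGC and brings in TRIM28 and SETDB1, which places H3K9me3. ChIP-seq reads do not tell the parental copies apart here, so each level is the sum over both.

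The letters of the IG-DMR are shown because the H3K9me3 peak lies over them. The stretch from 17 kb to 9 kb before Meg3, where the IG-DMR lies by general knowledge, held 10 matches to TGCCGC on either strand. Of these, 5 fell within 149 bases, at spacings of 46, 46, 28 and 23 bases, in the 200 bases printed below. The run was the only place on chromosome 12 with 5 matches within 200 bases, among 7233 matches on that chromosome. Matches are in capitals.
IG-DMR, chr12:110766481-110766680, NCBIM37, + strand: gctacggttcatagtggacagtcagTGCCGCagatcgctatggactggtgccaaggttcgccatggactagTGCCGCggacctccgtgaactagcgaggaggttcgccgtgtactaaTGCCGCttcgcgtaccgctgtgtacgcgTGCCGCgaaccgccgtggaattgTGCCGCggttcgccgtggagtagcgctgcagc

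The starts of Meg3 and Dio3 are shown for contrast, since the former lay on the flank of the H3K9me3 peak and the latter inside the H3K27me3 peak. The start of Meg3 held 1 match to TGCCGC, printed in capitals as its reverse complement GCGGCA, and 13 CpG. The 300 bases at the start of Dio3 held no match, although the 3 tiles within 2 kb of it held 4, and the 31 CpG of these bases are in capitals, against a median of 7 CpG in 32851 promoters of the same length in RefSeq. Of those promoters 11.6% held at least 1 match on either strand. A match is a description of the letters, not of binding.
Start of Meg3, chr12:110778961-110779260, NCBIM37, + strand: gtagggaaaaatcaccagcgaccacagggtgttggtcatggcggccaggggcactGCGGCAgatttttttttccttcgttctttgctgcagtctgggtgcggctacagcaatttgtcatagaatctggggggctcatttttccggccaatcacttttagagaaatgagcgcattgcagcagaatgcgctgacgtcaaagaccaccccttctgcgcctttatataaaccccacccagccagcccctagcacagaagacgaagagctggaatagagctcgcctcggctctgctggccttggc
Start of Dio3, chr12:111517028-111517327, NCBIM37, + strand: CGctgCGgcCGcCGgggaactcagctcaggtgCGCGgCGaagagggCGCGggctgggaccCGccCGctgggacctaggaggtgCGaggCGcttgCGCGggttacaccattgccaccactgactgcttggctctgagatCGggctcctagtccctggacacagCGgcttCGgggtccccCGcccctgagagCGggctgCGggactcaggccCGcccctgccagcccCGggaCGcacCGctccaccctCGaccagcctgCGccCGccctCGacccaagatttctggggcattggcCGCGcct

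The microRNAs are shown because the noncoding genes of the locus are their hosts and because Dicer, which cuts their hairpins, was missing from all cells. RefSeq, on the assembly GRCm38.p6, supplied 58 hairpins whose sequence was found in the NCBIM37 window, with 108 mature names. By place on NCBIM37, 1 hairpin lay inside Meg3, 8 between Meg3 and Rtl1, 6 antisense to Rtl1, 3 inside Rian, 28 between Rian and Mirg, 10 inside Mirg and 2 elsewhere. Bases 2 to 8, the seed that pairs with target RNAs, are in capitals.
miR-770-3p, inside Meg3: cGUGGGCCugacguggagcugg
miR-127-3p, antisense to Rtl1: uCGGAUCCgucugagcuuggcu
miR-136-5p, antisense to Rtl1: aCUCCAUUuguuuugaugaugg
miR-370-3p, inside Rian: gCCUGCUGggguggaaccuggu
miR-379-5p, between Rian and Mirg: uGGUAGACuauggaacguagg
miR-1193-5p, between Rian and Mirg: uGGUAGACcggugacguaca
miR-379-3p, between Rian and Mirg: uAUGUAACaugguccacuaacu
miR-411-3p, between Rian and Mirg: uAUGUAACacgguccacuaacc
miR-134-5p, between Rian and Mirg: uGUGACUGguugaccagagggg
miR-369-3p, inside Mirg: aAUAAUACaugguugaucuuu
miR-410-3p, inside Mirg: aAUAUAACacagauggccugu
The mature RNAs carried 99 different seeds, of which 9 were shared by a pair of them. Among the printed sequences, miR-379-5p and miR-1193-5p share GGUAGAC, and miR-379-3p and miR-411-3p share AUGUAAC. The levels of these RNAs were not measured here.

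Across the whole locus, H3K27me3 was the mark furthest above the genome mean. Its level was 2.10 in both genotypes (23617 and 18497 reads), and the log2 change was -0.00 (95% interval, -0.03 to 0.03). H3K9me3 stood at 1.43 in Dicer KO and 1.48 in Dicer KO/Dnmt1 cKO, a log2 change of 0.04 (0.01 to 0.08). H3K9me2 stood at 1.26 and 1.20, a log2 change of -0.06 (-0.10 to -0.02). The sums over the locus thus moved little in either direction, although the H3K9me2 and H3K9me3 intervals lay off 0. With changes scaled to a median log2 ratio of 0, that of H3K9me3 was 0.03 (-0.01 to 0.07).

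The profile along the locus was uneven and recurred in both genotypes. H3K27me3 had a peak at Dlk1, a low stretch over Rian beyond its beginning and its summit at Dio3. Before Dlk1 it stood at 2.48 in Dicer KO and 2.53 in Dicer KO/Dnmt1 cKO. Between Dlk1 and Meg3 it was 1.73 and 1.80 over the IG-DMR stretch and 2.41 and 2.45 over the other tiles. H3K9me3 had a lone high peak before Meg3. Over the 550 tiles, levels in Dicer KO and Dicer KO/Dnmt1 cKO had a Spearman correlation of 0.854 for H3K27me3, 0.648 for H3K9me3 and 0.564 for H3K9me2. H3K9me3 and H3K27me3 in Dicer KO had one of 0.109. The tiles are neighbours and share libraries, mappability and base composition, and low counts weaken such values.

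**Figure D1:**
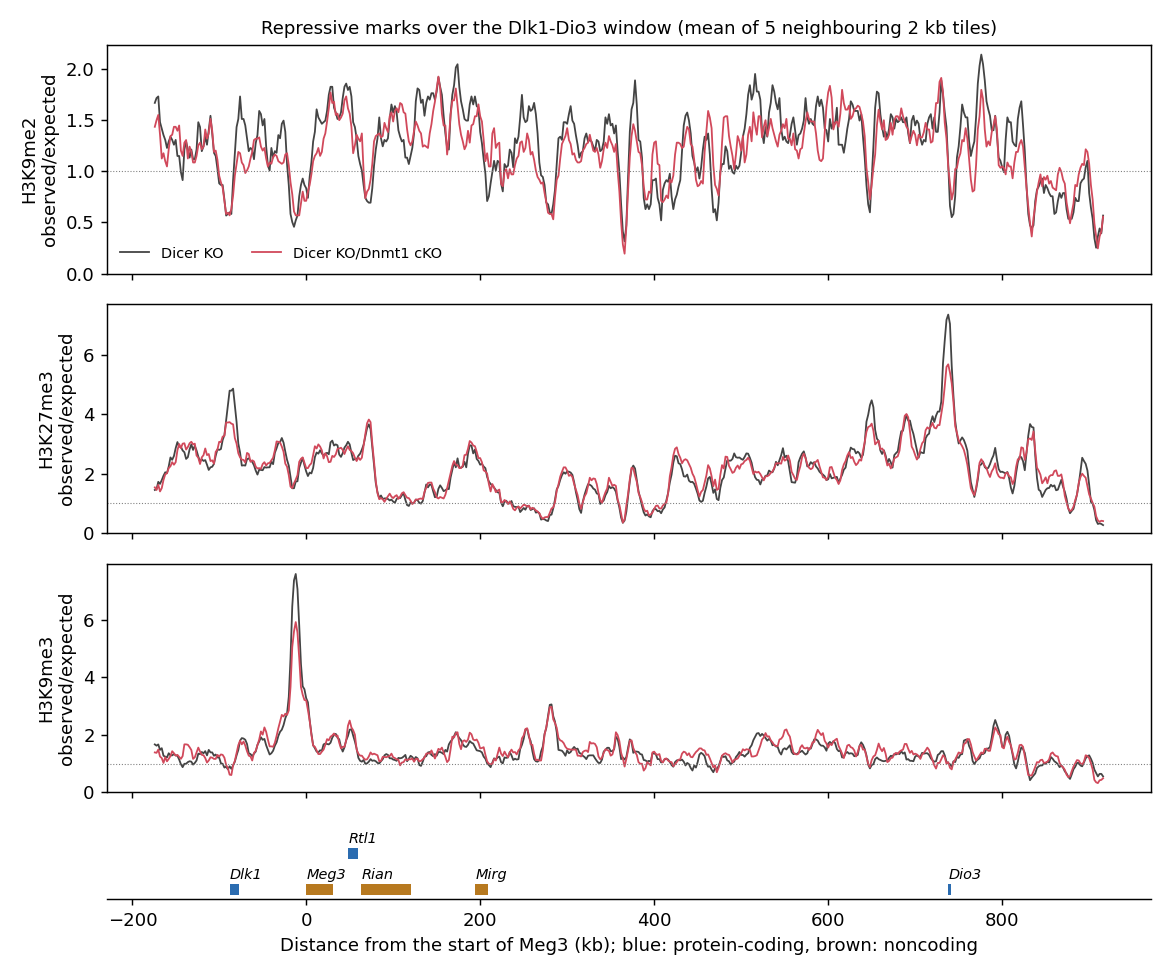
Levels of H3K9me2, H3K27me3 and H3K9me3 (observed over expected reads, mean of 5 neighbouring 2 kb tiles) against the distance from the start of Meg3 in kb, in Dicer KO (grey) and Dicer KO/Dnmt1 cKO (red), with the 6 genes as bars at the bottom and the genome mean of 1 dotted. The H3K9me3 peak stands just before Meg3 and the H3K27me3 summit at Dio3, and both are lower in red.

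The H3K9me3 peak before Meg3 was among the richest places of the genome for this mark. The 5 tiles that touch the IG-DMR stretch held 519 reads in Dicer KO, a level of 7.59 (95% interval, 6.95 to 8.27), and 422 reads in Dicer KO/Dnmt1 cKO, a level of 5.92 (5.37 to 6.51). The log2 change was -0.36 (-0.55 to -0.17). From the most distant tile to the one nearest to Meg3, reads were 74, 124, 157, 105 and 59 in Dicer KO and 54, 107, 123, 79 and 59 in Dicer KO/Dnmt1 cKO. The read counts were thus lower after Dnmt1 deletion in 4 tiles and the same in the tile nearest to Meg3.

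The 3 tiles of the locus with most H3K9me3 reads all lay here, and 2 of them held 4 and 5 matches to TGCCGC. The summit tile, chr12:110766001-110768000, contains the printed run of matches and had a level of 11.5 in Dicer KO and 8.62 in Dicer KO/Dnmt1 cKO, a log2 change of -0.41 (-0.76 to -0.06). Only 168 tiles of the genome (0.0127%) held as many or more H3K9me3 reads in Dicer KO, and 205 (0.0154%) did so in Dicer KO/Dnmt1 cKO. At least 5 matches were found in 0.0278% of all tiles and at least 1 in 10.5%, against 18.4% of the tiles of the locus. The hexamer contains a CpG, and tiles of the locus averaged 25.3 CpG against 16.1 over all tiles. The level after Dnmt1 deletion was lower yet still far above the genome mean.

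The other marks did not share this peak. H3K9me2 in the same 5 tiles was 0.520 (33 reads) in Dicer KO and 0.570 (44 reads) in Dicer KO/Dnmt1 cKO, below the genome mean in both. H3K27me3 was 1.73 (177 reads) and 1.80 (144 reads), and its log2 change of 0.05 (-0.27 to 0.38) did not differ from 0 beyond counting error. The start of Meg3, the 3 tiles within 2 kb of it, still had an H3K9me3 level of 4.12 in Dicer KO and 3.67 in Dicer KO/Dnmt1 cKO, a log2 change of -0.17 (-0.49 to 0.16).

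The fall over the IG-DMR stretch has to be set beside the other tiles rich in H3K9me3. The genome had 2476 tiles that averaged 50 or more H3K9me3 reads, of which 73.4% were lower in Dicer KO/Dnmt1 cKO, and their median log2 change was -0.19. Scaled to these tiles, the change over the IG-DMR stretch was -0.17 (-0.36 to 0.02), an alternative chosen after the data were seen. Among the 282 tiles averaging 100 or more reads the median was -0.11. How much of the fall belongs to rich tiles in general was not tested.

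Between Dlk1 and Meg3 as a whole, 38 tiles, H3K9me3 was 2.72 in Dicer KO and 2.52 in Dicer KO/Dnmt1 cKO, a log2 change of -0.11 (-0.22 to -0.00). This rested on the IG-DMR stretch, since without its 5 tiles the levels were 1.99 and 2.01 and the change was 0.01 (-0.12 to 0.15). H3K27me3 over the 38 tiles was 2.32 and 2.37, a change of 0.03 (-0.07 to 0.13). H3K9me2 was 1.17 and 1.04, a change of -0.17 (-0.34 to -0.00). With tiles taken by their midpoint, the H3K9me3 and H3K9me2 intervals both reached past 0, at changes of -0.10 and -0.16.

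**Figure D2:**
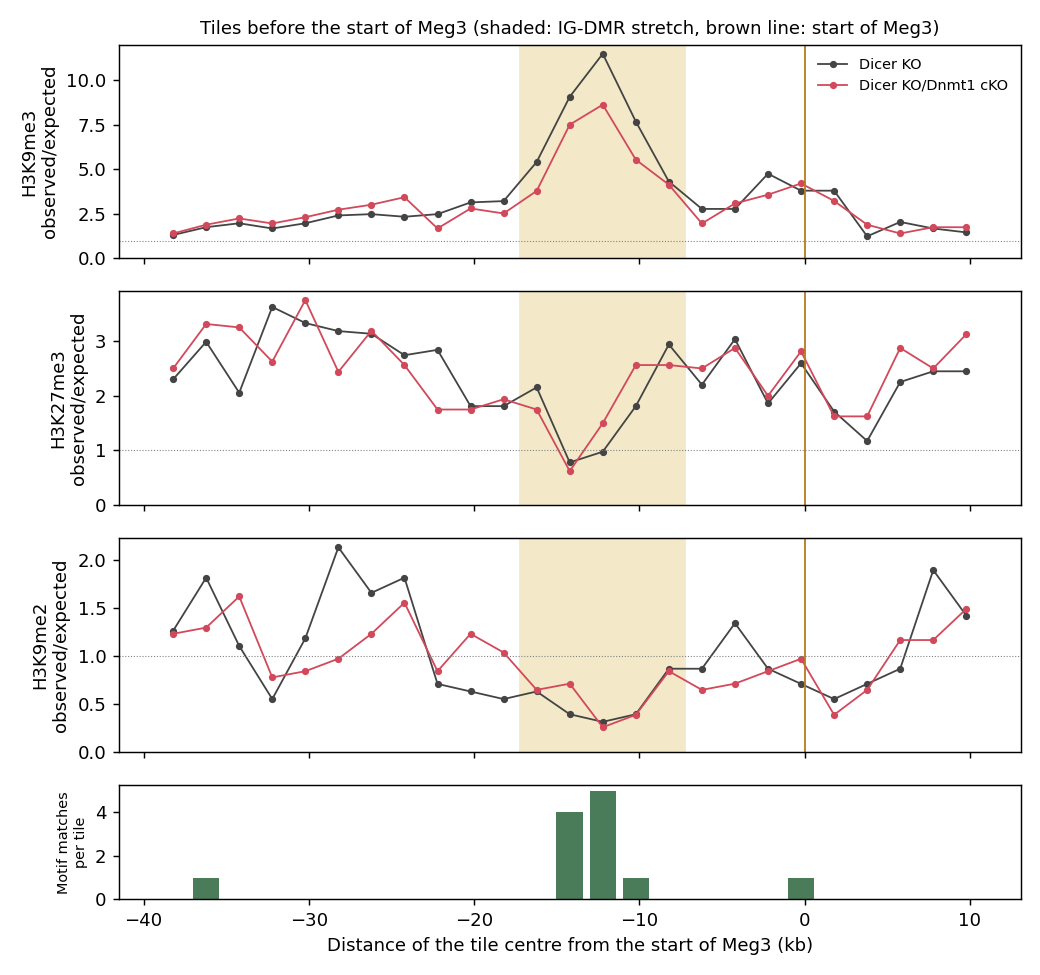
Levels of H3K9me3, H3K27me3 and H3K9me2 (observed over expected reads) in single 2 kb tiles against the distance from the start of Meg3 in kb, in Dicer KO (grey) and Dicer KO/Dnmt1 cKO (red), with matches to the hexamer per tile as bars at the bottom and the 5 tiles of the IG-DMR stretch shaded. H3K9me3 reaches 11.5 in Dicer KO and 8.62 in Dicer KO/Dnmt1 cKO in the tile with 5 matches, where H3K9me2 is below the genome mean of 1 (dotted).

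Of the genes expressed from the paternal copy, Dio3 and Dlk1 carried the most H3K27me3 of the 6 members. Dio3 (ENSMUSG00000075707.4, chr12:111517278-111519307, + strand) had a level of 7.89 (323 reads) in Dicer KO and 6.77 (217 reads) in Dicer KO/Dnmt1 cKO. More than 99% of the 18653 genes compared had a lower level, 99.5% in Dicer KO and 99.7% in Dicer KO/Dnmt1 cKO. The log2 change of -0.22 (-0.48 to 0.03) did not exceed counting error. H3K9me2 was 0.591 and 0.550 and H3K9me3 was 0.731 and 0.666, so Dio3 stood below the genome mean in these marks on 15 to 20 reads per library.

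The 3 tiles within 2 kb of the start of Dio3 were the 3 of the locus with most H3K27me3 reads. Together they fell from 8.49 to 6.07, a log2 change of -0.48 (-0.69 to -0.27). The tile before the gene, which lies over the antisense noncoding gene Dio3os, held 198 reads in Dicer KO and 75 in Dicer KO/Dnmt1 cKO, a log2 change of -1.05 (-1.45 to -0.66). The tile with the start of Dio3, which has 241 CpG and also holds the microRNA gene Mir1247, held 165 and 104 reads, a change of -0.31 (-0.68 to 0.05). The tile of the gene body held 158 and 113 reads, a change of -0.13 (-0.49 to 0.23). The fall thus lay mostly in the tile over Dio3os, and without it the change at the start of Dio3 was -0.22 (-0.48 to 0.03). Dio3os over its 3 tiles went from 7.85 to 5.49, a log2 change of -0.52.

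**Figure D3:**
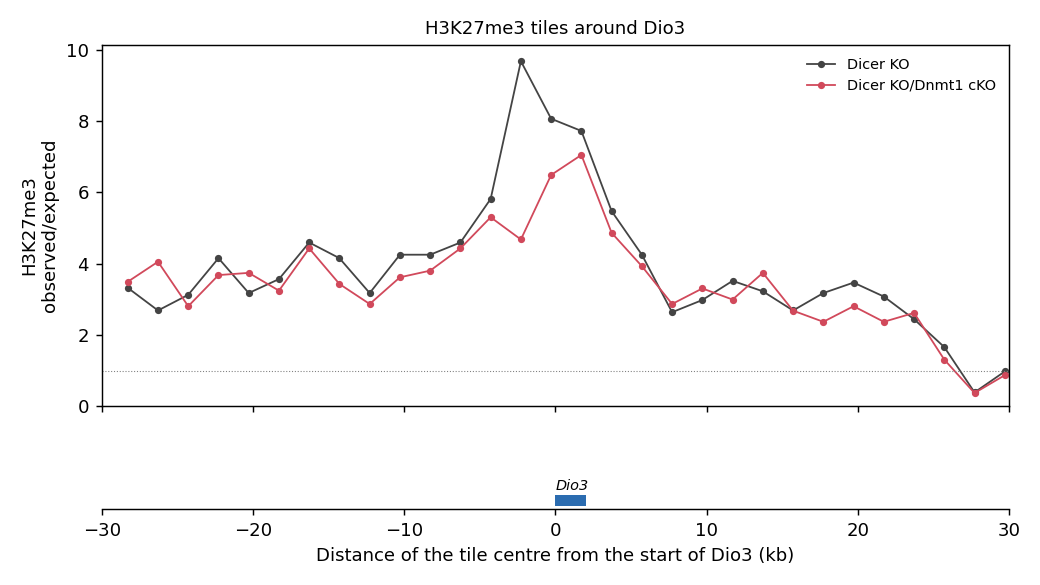
H3K27me3 level (observed over expected reads) in 2 kb tiles against the distance from the start of Dio3 in kb, in Dicer KO (grey) and Dicer KO/Dnmt1 cKO (red), with the gene as a bar and the genome mean of 1 dotted. The tile just before the gene falls from 9.68 to 4.68, more than the tiles of Dio3 itself.

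Dlk1 (ENSMUSG00000040856.11, chr12:110691033-110701546, + strand) had the second highest H3K27me3 level of the members. It held 548 reads in Dicer KO, a level of 4.46 (4.10 to 4.85), and 331 reads in Dicer KO/Dnmt1 cKO, a level of 3.44 (3.08 to 3.83). Dlk1 was the only member whose gene-body change exceeded counting error when scaled by library totals, with a log2 change of -0.38 (-0.58 to -0.18). Scaled to the tiles of the genome that averaged 50 or more H3K27me3 reads, it was -0.18 (-0.38 to 0.02). At the start of Dlk1 H3K27me3 went from 4.92 to 3.97, a change of -0.31 (-0.58 to -0.04), and of -0.12 (-0.38 to 0.15) when scaled to those tiles. H3K9me2 (1.05 and 0.852) and H3K9me3 (1.08 and 1.02) stayed near the genome mean, with changes of -0.30 (-0.77 to 0.16) and -0.09 (-0.54 to 0.35).

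Falls were common at places rich in H3K27me3. In the genome, 2242 tiles averaged 100 or more H3K27me3 reads, and 92.8% of them were lower in Dicer KO/Dnmt1 cKO, with a median log2 change of -0.46. Scaled to these tiles, the change was 0.24 (-0.01 to 0.49) over Dio3 and -0.02 (-0.23 to 0.19) at its start. For the 31274 tiles averaging 50 or more reads the median was -0.19 and 71.8% were lower. Scaled to those, the change was -0.03 (-0.28 to 0.22) over Dio3 and -0.29 (-0.50 to -0.08) at its start. The developmental regulators used as markers were also lower, except Gata4 (2.51 and 3.35). H3K27me3 at the start of Hoxd11, a homeobox gene of the limb and trunk, was 10.5 in Dicer KO and 6.61 in Dicer KO/Dnmt1 cKO. The part of this general shift in the values at Dio3 and Dlk1 was not tested.

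Rtl1 (ENSMUSG00000085925.2, chr12:110827404-110838540, - strand), the third gene of the paternal copy, had little in common with Dio3. Its H3K27me3 level was 2.72 (389 reads) in Dicer KO and 2.65 (297 reads) in Dicer KO/Dnmt1 cKO, a log2 change of -0.04 (-0.26 to 0.18). H3K9me3 was 1.93 (185 reads) and 2.06 (206 reads), a change of 0.09 (-0.20 to 0.39), and 98.1% and 98.6% of 16681 genes had a lower level. H3K9me2 was 1.62 and 1.47, a change of -0.14 (-0.48 to 0.19). Rtl1 thus held both H3K9 marks and H3K27me3 above the genome mean in each library, as did the locus as a whole. With tiles taken by their midpoint, H3K9me2 over Rtl1 was 1.18 in Dicer KO/Dnmt1 cKO. The antisense transcript of Rtl1 comes from the maternal copy, and ChIP-seq does not separate the strands.

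Of the noncoding genes of the maternal copy, Meg3 (ENSMUSG00000021268.10, chr12:110779211-110809936, + strand) lay nearest to the IG-DMR. Its H3K9me3 level was 1.86 (406 reads) in Dicer KO and 1.87 (427 reads) in Dicer KO/Dnmt1 cKO, above that of 97.9% and 98.0% of genes. The log2 change was 0.01 (-0.19 to 0.21), so the fall in the IG-DMR stretch was not seen over the gene. H3K27me3 was 2.49 (814 reads) and 2.56 (657 reads), a change of 0.04 (-0.11 to 0.19), and H3K9me2 was 1.40 and 1.23, a change of -0.19 (-0.42 to 0.05).

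Rian (ENSMUSG00000091793.1, chr12:110842155-110899919, + strand), a host of snoRNAs, had the lowest H3K27me3 of the members. The level was 1.68 (996 reads) in Dicer KO and 1.77 (823 reads) in Dicer KO/Dnmt1 cKO, a log2 change of 0.08 (-0.06 to 0.21). The mark was unevenly spread along the gene: the first 16 kb stood at 2.92 and 3.02 and the rest at 1.12 and 1.21, a division chosen after the profile was seen. H3K9me3 was 1.13 and 1.19 and H3K9me2 was 1.19 and 1.31, with changes of 0.08 (-0.11 to 0.27) and 0.15 (-0.03 to 0.33).

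Mirg (ENSMUSG00000091158.1, chr12:110973191-110987665, + strand), the host of microRNAs at the far end of the cluster, had an H3K27me3 level of 2.27 (372 reads) in Dicer KO and 2.32 (297 reads) in Dicer KO/Dnmt1 cKO. The log2 change was 0.03 (-0.20 to 0.25). H3K9me3 was 1.29 (141 reads) and 1.53 (174 reads), a change of 0.24 (-0.09 to 0.57), and H3K9me2 was 1.30 and 1.46, a change of 0.16 (-0.17 to 0.50). None of the 3 intervals excluded 0. At the starts of Rtl1, Rian and Mirg, H3K27me3 changed by no more than counting error either, with levels of 2.85, 2.61 and 2.48 in Dicer KO and 2.41, 2.52 and 3.01 in Dicer KO/Dnmt1 cKO.

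The order of the members in H3K27me3 was Dio3, Dlk1, Rtl1, Meg3, Mirg and Rian in both genotypes. The intervals of Dio3, Dlk1 and Rian did not overlap those of their neighbours in that order, whereas neighbours among Rtl1, Meg3 and Mirg overlapped. In H3K9me3 the order was Rtl1, Meg3, Mirg, Rian, Dlk1 and Dio3 in both genotypes. The intervals of neighbours in this order overlapped, except those of Meg3 and Mirg in Dicer KO and those of Mirg and Rian in Dicer KO/Dnmt1 cKO. In H3K9me2 Dio3 was lowest in both genotypes and Rtl1 highest, though Rtl1 stood at 1.18 and not 1.47 in Dicer KO/Dnmt1 cKO when tiles counted by their midpoint. The levels of the other members lay between 1.05 and 1.40 in Dicer KO and between 0.852 and 1.46 in Dicer KO/Dnmt1 cKO. Levels are per tile and so per length.

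**Figure D4:**
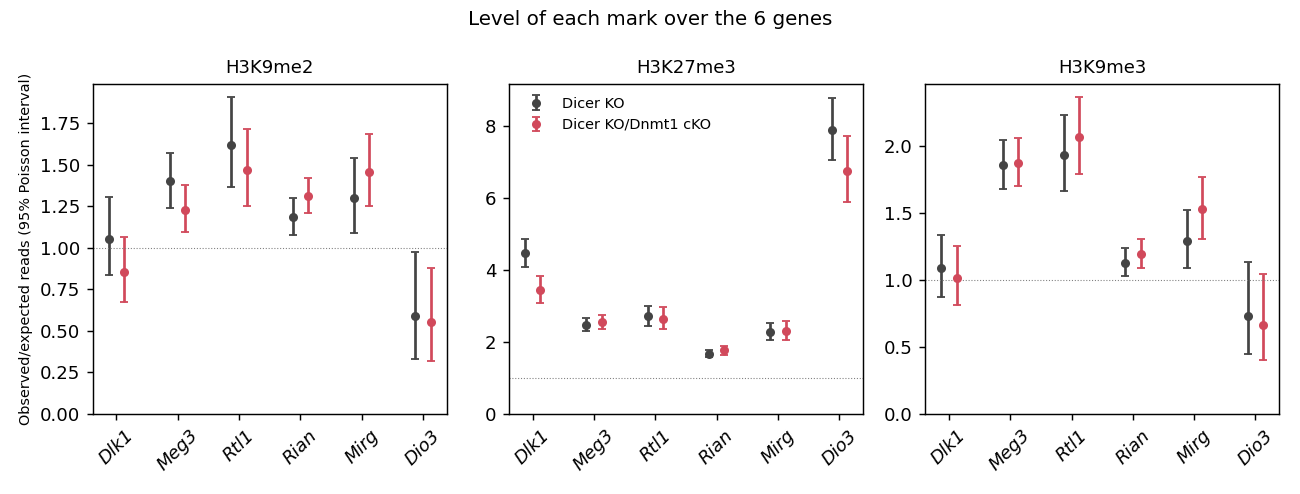
Level of each mark (observed over expected reads per tile) over the 6 genes in Dicer KO (grey) and Dicer KO/Dnmt1 cKO (red), with 95% Poisson intervals for counting error and the genome mean of 1 dotted. Dio3 and Dlk1 stand out in H3K27me3 and are lowest in H3K9me2 and H3K9me3.

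Counts past a fixed fold gave no member. Genes averaging 50 or more reads entered. In H3K27me3, 0 of 6 members were at least 1.5-fold apart in either direction, against 3.43% of all genes higher and 2.24% lower. In H3K9me3 it was 0 of 5 members (0.552% of all genes higher, 0.599% lower), and in H3K9me2 also 0 of 5 (2.79% higher, 0.246% lower), Dio3 having too few reads in both. A count of 0 among so few genes says little. The median log2 change of the tested members was -0.01 in H3K27me3, 0.08 in H3K9me3 and -0.14 in H3K9me2, against 0.04, 0.03 and 0.10 over all genes tested.

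Tile by tile, H3K27me3 was steadier over the locus than over the genome. Of 523 tiles averaging 10 or more reads, 2 were at least 2-fold higher (0.382%, against 3.09% of all tiles) and 5 at least 2-fold lower (0.956%, against 2.90%). Tiles of the locus hold more H3K27me3 reads than most tiles, which narrows the spread of their ratios. For H3K9me3 19 of 513 tiles were higher (3.70%, against 4.07%) and 8 lower (1.56%, against 3.42%). For H3K9me2 20 of 483 tiles were higher and as many lower (4.14%, against 4.06% and 2.97%). The median tile change was 0.01, 0.05 and -0.07 for these marks, against -0.00, 0.01 and -0.00 in the genome.

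The 3 tiles that fell most in H3K27me3 all lay between members or beyond Dio3. They held 56, 62 and 37 reads in Dicer KO and 18, 20 and 13 in Dicer KO/Dnmt1 cKO. The median tile of that Dicer KO library held 18 reads. Their intervals lay below 0, though these tiles were picked for their falls. The tiles that rose most in H3K9me3 and H3K9me2 held few reads. In H3K9me3 the tile that rose most, chr12:110684001-110686000 upstream of Dlk1, held 4 reads in Dicer KO and 21 in Dicer KO/Dnmt1 cKO. In H3K9me2 the tile that rose most held 3 and 18 reads. Counts this low leave intervals of more than 3 log2 units for both of these tiles.

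**Figure D5:**
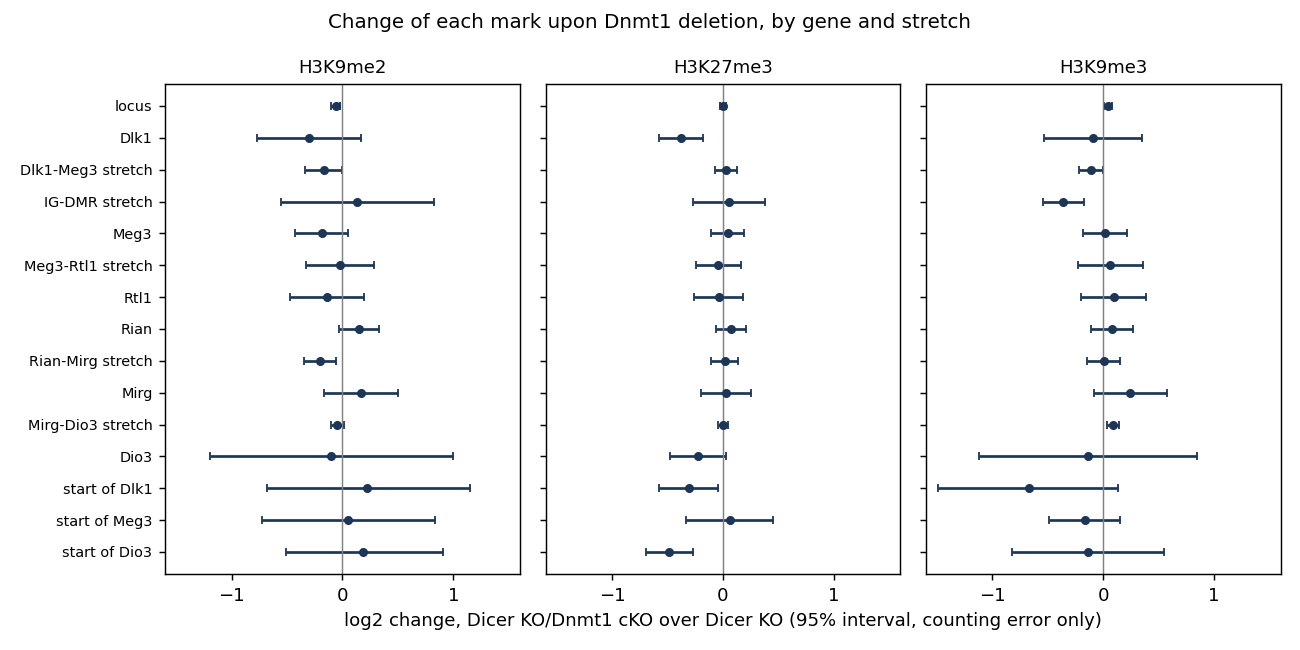
Log2 change of each mark, Dicer KO/Dnmt1 cKO over Dicer KO, by gene and stretch, with 95% intervals for counting error only. In H3K27me3 the intervals of Dlk1 and of the starts of Dlk1 and Dio3 lie below 0, in H3K9me3 that of the IG-DMR stretch does so most clearly, and most other points lie near 0.

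The microRNA genes of the locus lay in tiles above the genome mean in H3K27me3 in both genotypes, but the locus as a whole stood at 2.10. The share of all its tiles above the mean was not counted. Of the snoRNA genes, 4 lay below the mean in at least 1 library, on as few as 15 reads. A difference between both classes of genes was not tested. The annotation held 57 microRNA and 23 snoRNA genes in the window, each shorter than a tile, so that neighbours share tiles and counts. In H3K27me3 the tiles of the 6 microRNA genes antisense to Rtl1 stood at 2.74 in Dicer KO and 2.91 in Dicer KO/Dnmt1 cKO, those of the 4 inside Rian at 3.55 and 3.72, those of the 9 inside Mirg at 2.47 and 2.25, and those of the 27 between Rian and Mirg at 2.37 and 2.52. The tiles of the 13 snoRNA genes inside Rian, of which all but SNORD112 lie beyond its first 16 kb, stood at 1.24 and 1.32. In none of these groups did the H3K27me3 interval of the change exclude 0.

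By place, the microRNA genes formed 7 groups, with 1 further gene antisense to Mirg, and the snoRNA genes 2 groups. Over these groups and the 3 marks, the interval of a change excluded 0 in 3 cases. H3K27me3 over the 7 microRNA genes between Meg3 and Rtl1 went from 3.19 (326 reads) to 2.64 (212 reads), a log2 change of -0.27 (-0.53 to -0.01). Over the 8 tiles wholly between Meg3 and Rtl1 the H3K27me3 change was -0.04 (-0.24 to 0.16). H3K9me3 over the 9 inside Mirg went from 1.27 (104 reads) to 1.69 (145 reads), a change of 0.42 (0.05 to 0.80). H3K9me2 over the 27 between Rian and Mirg went from 1.81 (322 reads) to 1.48 (319 reads), a change of -0.30 (-0.53 to -0.07), and over the whole stretch between Rian and Mirg the change was -0.20 (-0.35 to -0.06). These are small differences among many intervals, with no replicate.

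Most microRNA genes rest on a single tile each, and 7 of the 57 reach into a second. The tile of Mir127, which is antisense to Rtl1, held 64 H3K27me3 reads in Dicer KO and 49 in Dicer KO/Dnmt1 cKO, and 33 and 52 H3K9me3 reads. The tile of Mir379, the first gene of the large cluster, held 33 and 44 H3K27me3 reads and 34 and 24 H3K9me3 reads. Mir369 lies in a tile inside Mirg with 60 and 42 H3K27me3 reads and 26 and 32 H3K9me3 reads. Mir410 reaches from that tile into the next, and both together held 99 and 82 H3K27me3 reads and 43 and 46 H3K9me3 reads. The tiles of the hairpins printed above had H3K27me3 above the genome mean in both genotypes, from 1.61 at Mir379 to 3.13 at Mir127 in Dicer KO. These values lie on both sides of the level of the whole locus, 2.10 in Dicer KO, so they do not set the hairpins apart from it.

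Of all 89 genes annotated in the window, 37 had enough reads in H3K27me3 and 9 in H3K9me3 for the 1.5-fold count. Mir673, named here after its value was seen, was the only one past 1.5-fold in H3K27me3 (2.70%, against 2.24% of all genes lower), at 84 reads in Dicer KO and 39 in Dicer KO/Dnmt1 cKO in its tile. The microRNA gene AC121784.3, named likewise, was the only one in H3K9me3 (against 0.552% of all genes higher), at 50 and 86 reads over 2 tiles. In H3K9me2 it was 0 of 9 genes. Ppp2r5c, a regulatory subunit of protein phosphatase 2A that reaches past the end of the window, stood apart from the members with an H3K27me3 level of 0.282 in Dicer KO and 0.367 in Dicer KO/Dnmt1 cKO.

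The genes elsewhere whose 6 levels were nearest to those of each member, by Euclidean distance over 6 log2 levels among 14878 genes, differed between the members. Nearest to Dio3 were Hmx1 (distance 0.532), Cyp26b1 (0.799) and Tbr1 (0.820), of which Hmx1 and Tbr1 encode developmental transcription factors and Cyp26b1 an enzyme that degrades retinoic acid. Nearest to Dlk1 were Gm15475 (0.209), Nefl, which encodes a neurofilament protein, and Heyl, a transcription factor of the Notch pathway. Nearest to Meg3 were 4930515B02Rik (0.338), Ajap1 and 4930465M20Rik, and nearest to Rtl1 were Muc5ac (0.301), Neu4 and Cym. Rian (Lhfpl2, 0.111) and Mirg (Scn10a, 0.111) had the closest neighbours.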

How the data were processed

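H3K9me2, H3K27me3 and H3K9me3 ChIP-seq libraries of Dicer KO and Dicer KO/Dnmt1 cKO ESCs were analysed. Per the methods, the authors used Trim Galore for trimming and Bowtie2 for mapping to NCBIM37, dropped alignments with MAPQ under 20 and quantified tiles. The deposited values are log2 observed over expected reads in 2 kb tiles, whereas the methods state 1 kb. Of 25 columns of values 6 matched the labels and 19 were not used. Their log2 steps gave whole reads back within 0.1 read for all but 1 value, with empty tiles at 0.9 read, which limits the precision to counting error. Library totals scaled all changes. Genes came from GENCODE on NCBIM37, whose 22 chromosomes had the lengths of the table. Promoter and IG-DMR sequences were read from NCBIM37, and microRNA sequences from RefSeq.

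A feature took every tile it overlapped. Levels have exact Poisson intervals and changes exact conditional binomial (Clopper-Pearson) intervals, at 95%. No test was made, with 1 library per mark and genotype. Genes and stretches were named by a rule: the 6 members, the IG-DMR stretch, the starts, small RNA genes by host, the 3 tiles with most reads, largest rise and largest fall, and the 3 nearest genes. Members and lists were chosen with earlier results of these data known. Alternatives were other scalings, tile rules, minimum reads and a change relative to the other 2 marks. Scaling to tiles rich in reads and leaving out the IG-DMR stretch were added after seeing the data. Scripts (Python 3.11.15, numpy 2.4.6, pandas 2.3.3, scipy 1.17.1, matplotlib 3.10.9) were tested on simulated data.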

Additional observations from a re-analysis of the deposited data

How the results depend on the processing

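With 1 library per mark and genotype, differences between cultures or ChIP reactions cannot be told apart from those between genotypes, and tiles of few reads carry little. No paired analysis was possible because no group has more than 1 library. Other settings moved 346 log2 changes by less than their counting error and 8 by more. Scaling by the median, a trimmed mean or autosomes shifted changes by at most 0.014. Leaving out tiles without a read in any library altered no change. The 346 include these settings, so the count says little about robustness. Taken relative to the other 2 marks, the log2 change of H3K9me3 between Dlk1 and Meg3 turned from -0.112 to 0.0208, and it was 0.0133 without the IG-DMR stretch. On that scale H3K9me3 moved to 0.14 over the locus and 0.45 over Dlk1, and H3K27me3 to 0.20 between Dlk1 and Meg3 and 0.47 over the IG-DMR stretch. Scaled to tiles averaging 50 or more reads, H3K9me3 over the IG-DMR stretch was -0.17, with an interval that included 0. H3K27me3 was then -0.03 over Dio3, -0.18 over Dlk1 and -0.12 at the start of Dlk1, with intervals that included 0. At the start of Dio3 it was -0.29, with an interval below 0. Scaled to tiles averaging 100 or more reads, H3K27me3 was 0.24 over Dio3 and -0.02 at its start, with intervals that included 0. At the start of Dlk1 it was -0.03 relative to the other 2 marks, and at the start of Dio3 -0.22 without its richest tile. Widened by 2 kb, Dio3 had -0.42, with an interval below 0. The H3K9me3 change over the locus was 0.03 with median scaling, and its interval then included 0. The H3K9me2 level of Rtl1 in Dicer KO/Dnmt1 cKO was 1.18 with tiles whose midpoint lies inside. With a mean of at least 20 reads, tiles at least 2-fold higher and lower were 4 and 2 in H3K9me3 and 1 and 5 in H3K9me2, and 1 was higher in H3K27me3. With a mean of at least 5 reads, 5 were higher for H3K27me3. With tiles summed in pairs, higher and lower pairs were 2 and 2 in H3K9me3, 4 and 2 in H3K9me2, and 0 and 0 in H3K27me3. The cause of these moves was not tested, apart from the fewer tiles that a higher minimum or pairing leaves.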

Other observations

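The longest stretch without a member, 529.612 kb between Mirg and Dio3, kept its H3K27me3 level at 1.98 in both genotypes (10684 and 8374 reads over 264 tiles). H3K9me3 there was 1.37 in Dicer KO and 1.45 in Dicer KO/Dnmt1 cKO, a log2 change of 0.09 with a 95% interval of 0.03 to 0.14, and H3K9me2 was 1.28 and 1.24.

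Apart from the IG-DMR stretch, a further tile of the locus held at least 4 matches to TGCCGC, the tile with the start of Ppp2r5c with 5 matches and 161 CpG. It held 6 H3K9me3 reads in Dicer KO and 1 in Dicer KO/Dnmt1 cKO, against 157 and 123 in the IG-DMR tile with as many matches and 53 CpG. Over the 550 tiles, the Spearman correlation of H3K9me3 with CpG per tile was -0.05 in Dicer KO and 0.07 in Dicer KO/Dnmt1 cKO, and that of H3K27me3 was 0.239 and 0.324, as a description of neighbouring tiles.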
